A study of Mus musculus with 6 samples.

Results

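The 8 genes examined here encode the KIT ligand and receptor, the kinases AKT1 and mTOR with the mTOR partner Raptor, and the brakes TSC1, TSC2 and p27. They were chosen by name: Kitl, Kit, Akt1, Mtor, Rptor, Tsc1, Tsc2 and Cdkn1b, 8 of the 44788 genes listed in the count table. These genes and all lists below were chosen with earlier results of these data known, so shares of genes called in them are descriptions. All 8 passed the filter on low counts, which left 19423 genes for the test. Levels are given as CPM, the counts of a gene per 1000000 counts of its ovary on the genes tested, after TMM scaling, and a difference is the log2 fold change of Bnc1tr/tr against Bnc1+/+ ovaries.

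Primordial follicles rest until their oocyte is activated. KIT ligand made by granulosa cells binds the KIT receptor on the oocyte, which activates phosphatidylinositol 3-kinase and then AKT, and AKT holds the transcription factor FOXO3 out of the nucleus. Along another branch AKT inhibits the TSC1-TSC2 complex, the brake on mTOR complex 1, of which mTOR is the kinase and Raptor the scaffold that binds substrates. The cyclin-dependent kinase inhibitor p27, product of Cdkn1b, is known to restrain both follicle activation and the division of granulosa and luteal cells, and loss of Tsc1, Tsc2, Foxo3 or Cdkn1b in mice releases resting follicles early. Much of this control acts on phosphorylation and on where proteins sit in the cell, which RNA levels do not measure.

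RNA was sequenced from the ovaries of wild-type Bnc1+/+ mice (n = 3; replicates 1, 4 and 7) and of homozygous Bnc1tr/tr mice (n = 3; replicates 1, 2 and 3). Both genotypes were 8 weeks old and of the C57BL/6 J strain. The tr allele carries a small deletion in the coding sequence of Bnc1 that shifts the reading frame and truncates basonuclin 1, a zinc finger protein of oocytes and basal epithelia; homozygotes carry it in every cell. Each ovary gave 25247770 to 34406296 counts, so that 1 read was worth 0.0302 to 0.0385 CPM. Bnc1 itself was at 13.9, 13.4 and 13.1 CPM in Bnc1+/+ and at 18.7, 13.7 and 11.5 CPM in Bnc1tr/tr ovaries (log2 fold change 0.12, SE 0.18, edgeR adjusted p = 0.733), and a gene count does not show whether a transcript carries the frameshift. The study's methods say that littermates were compared, but the sources used here do not tell which mice shared a litter, or whether a library held 1 ovary or both ovaries of a mouse, so the p-values measure the spread between these samples. Markers of oocytes, granulosa cells, theca and corpus luteum were counted in all 6 libraries. The oviduct list summed to 653 CPM in Bnc1tr/tr replicate 3, to 206 CPM in Bnc1+/+ replicate 1 and to 61.1 to 67.1 CPM in the rest. Surface epithelium markers summed to 387 to 442 CPM in Bnc1+/+ and 413 to 523 CPM in Bnc1tr/tr ovaries, with 0 of 10 passing the test. Where the call of any of the 8 genes changed without Bnc1tr/tr replicate 3 or Bnc1+/+ replicate 1, this is given. The marker lists were not counted again without these ovaries.

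The 8 genes lie on 8 chromosomes of GRCm38 (GENCODE M21). Kitl spans chr10:100015630-100100416 and Kit chr5:75574916-75656722. Akt1 spans chr12:112653821-112674884 on the minus strand, Mtor chr4:148448611-148557683 and Rptor chr11:119602905-119899576. Tsc1 spans chr2:28641228-28691167, Tsc2 chr17:24595816-24632630 on the minus strand and Cdkn1b chr6:134920401-134925513. The last 693 bases of Tsc2 overlap Pkd1 on the opposite strand, Angptl7 lies within Mtor on the opposite strand and Rptoros is antisense to Rptor. Whether the counting used strand is not given in the sources used here, so reads in these overlaps are of uncertain origin.

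The promoters of Cdkn1b and Mtor, the members that passed the test, and of Kit, which had the second largest absolute log2 fold change of the 8, are shown from RefSeq on GRCm38.p6, plus strand. All 8 genes matched a promoter entry. Capitals mark a CCAAT box (CCAAT on either strand) or a GC box (GGGCGG on either strand), which do not overlap. The stretches are chr6:134920151-134920400 for Cdkn1b, chr4:148448332-148448581 for Mtor and chr5:75574737-75574915 for Kit, the last ending before the first annotated exon.
Cdkn1b: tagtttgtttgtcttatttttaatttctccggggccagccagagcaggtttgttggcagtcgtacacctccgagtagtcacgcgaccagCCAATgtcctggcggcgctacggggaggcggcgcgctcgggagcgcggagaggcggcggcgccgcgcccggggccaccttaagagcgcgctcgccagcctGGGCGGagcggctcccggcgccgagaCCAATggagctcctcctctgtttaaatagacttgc
Mtor: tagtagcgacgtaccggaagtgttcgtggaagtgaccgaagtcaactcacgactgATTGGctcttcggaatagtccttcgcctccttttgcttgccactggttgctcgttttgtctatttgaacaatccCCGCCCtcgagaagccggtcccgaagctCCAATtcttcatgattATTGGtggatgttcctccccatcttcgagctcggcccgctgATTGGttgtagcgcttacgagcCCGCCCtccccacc
Kit: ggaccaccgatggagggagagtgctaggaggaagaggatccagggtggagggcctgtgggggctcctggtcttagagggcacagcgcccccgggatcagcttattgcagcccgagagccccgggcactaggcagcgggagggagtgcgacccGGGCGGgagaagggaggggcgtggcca
In the 250 bases before the RefSeq start, Cdkn1b held 2 CCAAT boxes and 1 GC box, Mtor held 4 and 2, and Kit held 0 and 1. Of 27025 mouse promoter windows of that length, 34.5% held a CCAAT box and 32.9% a GC box. The FOXO core GTAAACA was in the window of Akt1 and in none of the other seven, against 3.09% of all windows. The cAMP response element (TGACGTCA, 1.62% of all windows) and the E-box CACGTG (6.05% of all windows) were in none of the 8. These matches describe letters only.

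Of the 8 genes, 2 fell in Bnc1tr/tr ovaries, Cdkn1b and Mtor, and 0 rose (edgeR quasi-likelihood test, Benjamini-Hochberg adjusted p under 0.05 over all genes tested). Over all 19423 genes the same rule called 7.06%, with 4.19% lower and 2.88% higher. The genotypes did not overlap for 3 of the 8 genes, Kit being higher and Cdkn1b and Mtor lower, against 30.8% of all genes. At an unadjusted p under 0.05 the count was also 3 of 8, against 24.2% of all genes. The median log2 fold change was -0.066 over the 8 genes and 0.02 over all genes tested.

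**Figure D1:**
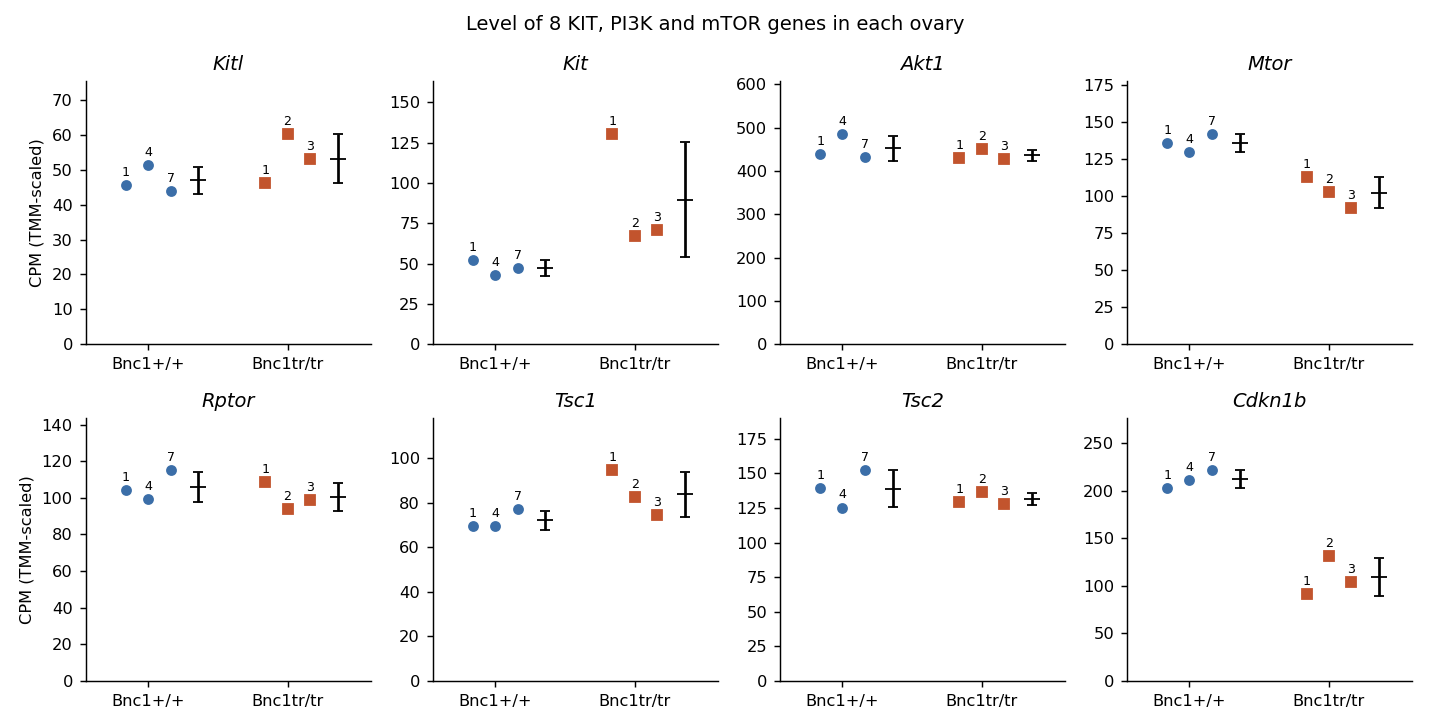
TMM-scaled CPM of the 8 genes (vertical axes, each from 0) in each Bnc1+/+ (circles) and Bnc1tr/tr (squares) ovary, with replicate numbers above the points and the mean ± SD (n = 3) beside each group. Cdkn1b and Mtor lie lower and Kit higher in all 3 Bnc1tr/tr ovaries, with Bnc1tr/tr replicate 1 at 130.6 CPM of Kit, and the other five genes overlap.

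Cdkn1b had the largest difference of the 8 genes. It was at 202.6, 211.8 and 221.6 CPM in the Bnc1+/+ replicates 1, 4 and 7 and at 91.6, 131.1 and 104.5 CPM in the Bnc1tr/tr replicates 1, 2 and 3. Every Bnc1tr/tr ovary lay below every Bnc1+/+ ovary. The mean fell by 48.6%, from 212 ± 9.46 to 109 ± 20.1 CPM (SD, n = 3 each; log2 fold change -0.96, SE 0.13, 95% interval -1.27 to -0.65, edgeR adjusted p = 0.00714). Of all genes tested, 1.49% had a smaller p. Without Bnc1+/+ replicate 4 the log2 fold change was -0.97 with an edgeR adjusted p of 0.0522, and in the other 12 alternative analyses Cdkn1b passed the test, at -1.11 to -0.85.

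Markers of the corpus luteum, the gland that forms from an ovulated follicle, were lower in the same ovaries. Of 12 such markers 9 fell and 0 rose, among them the luteinizing hormone receptor Lhcgr (691 to 85.9 CPM), and their summed level was 23763 to 28528 CPM in Bnc1+/+ and 7652 to 12972 CPM in Bnc1tr/tr ovaries. None of the 12 was at 0. Over all genes 4.19% fell and 2.88% rose. Endothelial markers summed to 984 to 1301 CPM and 693 to 819 CPM, with 4 of 10 lower, such as Pecam1, and 1 higher, Vwf. Per 1000 CPM of summed corpus luteum markers, a scale added after seeing the data, Cdkn1b stood at 8.53, 7.42 and 8.05 CPM in Bnc1+/+ and at 11.97, 10.1 and 9.10 CPM in Bnc1tr/tr ovaries. On this scale the order of the genotypes was turned, with no overlap. Cyp11a1 and Hsd3b1 carry much of that sum, with means of 10158 and 8430 CPM in Bnc1+/+ and 3547 and 5114 CPM in Bnc1tr/tr ovaries. Per 1000 CPM of summed endothelial markers, likewise added after seeing the data, Cdkn1b was at 206, 190 and 170 CPM in Bnc1+/+ ovaries. It was at 132, 160 and 133 CPM in Bnc1tr/tr ovaries, again without overlap and lower in Bnc1tr/tr. In whole ovaries fewer cells of a type and less RNA per cell cannot be told apart. The stage of the estrous cycle at collection is not given in the sources used here. The paper reports a longer diestrus in Bnc1tr/tr mice older than these, so stage and genotype cannot be told apart either. The part of cycle stage and of the luteal and endothelial levels in the fall of Cdkn1b was not tested.

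Mtor encodes the kinase at the centre of both mTOR complexes. Its level was 136.0, 129.8 and 142.1 CPM in Bnc1+/+ and 112.7, 102.8 and 91.7 CPM in Bnc1tr/tr ovaries. The genotypes did not overlap. The mean fell by 24.7%, from 136 ± 6.15 to 102 ± 10.5 CPM (SD, n = 3 each; log2 fold change -0.41, SE 0.096, 95% interval -0.63 to -0.19, edgeR adjusted p = 0.0459). This p lay close to the threshold. With library size alone as the scale the log2 fold change was -0.31 (edgeR adjusted p = 0.0891), and the call was also lost without Bnc1+/+ replicate 1 (0.104), 4 (0.126) or 7 (0.133) and without Bnc1tr/tr replicate 2 (0.0875) or 3 (0.135), each value an edgeR adjusted p. Without Bnc1tr/tr replicate 1 it was kept, with an edgeR adjusted p of 0.0296.

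Raptor, the scaffold that recruits substrates to mTOR complex 1, did not pass the test. Rptor was at 104.1, 99.2 and 115.0 CPM in Bnc1+/+ and at 108.8, 93.7 and 98.7 CPM in Bnc1tr/tr ovaries, which overlapped (log2 fold change -0.080, SE 0.094, 95% interval -0.30 to 0.14, edgeR adjusted p = 0.649). The log2 ratio of Rptor to Mtor counts within an ovary does not depend on library scaling. It was -0.39, -0.39 and -0.30 for Bnc1+/+ against -0.050, -0.13 and 0.11 for Bnc1tr/tr ovaries. All 3 Bnc1tr/tr values lay above the Bnc1+/+ values, with a mean difference of 0.33 (exact two-sided permutation test, p = 0.1, adjusted over 3 ratios 0.15; 0.1 is the smallest p that 3 ovaries against 3 allow).

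Akt1 had the highest CPM of the 8 genes and the smallest log2 fold change. It was at 438.8, 486.1 and 432.0 CPM in Bnc1+/+ and at 430.1, 449.9 and 427.8 CPM in Bnc1tr/tr ovaries, which overlapped. Its log2 fold change was -0.053 (SE 0.085, 95% interval -0.25 to 0.14, edgeR adjusted p = 0.745).

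KIT receptor RNA was higher in every Bnc1tr/tr ovary but did not pass the test. Kit was at 52.5, 42.7 and 47.0 CPM in the Bnc1+/+ replicates 1, 4 and 7 and at 130.6, 67.1 and 70.8 CPM in the Bnc1tr/tr replicates 1, 2 and 3. One Bnc1tr/tr ovary, replicate 1, stood far above the other two. The means were 47.4 ± 4.92 and 89.5 ± 35.7 CPM (SD, n = 3 each), with a log2 fold change of 0.92 (SE 0.25, 95% interval 0.34 to 1.49, unadjusted p = 0.0064, edgeR adjusted p = 0.0678). Without Bnc1tr/tr replicate 1 the log2 fold change was 0.54 with an edgeR adjusted p of 0.0331. Kit also passed with library size alone (log2 fold change 1.02, edgeR adjusted p = 0.0453), with no filter on low counts (0.91, edgeR adjusted p = 0.0342) and with DESeq2 (0.91, adjusted p = 0.00257). In the other nine of 13 alternatives it did not pass, and its direction was the same in all 13.

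Kit is known in the ovary from oocytes and theca cells, and elsewhere from mast cells. Of 24 oocyte markers 6 rose, for example Gdf9 (170 to 292 CPM) and Mos (19.1 to 41.5 CPM), and 0 fell, against 2.88% and 4.19% of all genes. Without overlap 12 lay higher and 1 lower, Sohlh1 (3.28 to 2.39 CPM), against 30.8% of all genes in either direction. Log2 fold changes were positive for 21 and negative for 3, Sohlh1 (-0.46), Ddx4 (-0.071) and Figla (-0.026). The list summed to 1297 to 1588 CPM in Bnc1+/+ and to 1550 to 2274 CPM in Bnc1tr/tr ovaries. None of these 24 markers was at 0. Per 1000 CPM of summed oocyte markers, also added after seeing the data, Kit was at 33.1, 28.3 and 36.2 CPM in Bnc1+/+ and at 57.4, 43.3 and 31.7 CPM in Bnc1tr/tr ovaries. On that scale the genotypes overlapped, with Bnc1tr/tr replicate 3 among the Bnc1+/+ ovaries. Of 10 theca markers 1 rose, the steroid 5-alpha-reductase Srd5a1. Without overlap 3 lay higher in Bnc1tr/tr ovaries, namely Srd5a1 and the Hedgehog pathway genes Ptch1 and Gli1, and 0 lower. Both counts were near the shares over all genes, 7.06% called and 30.8% without overlap in either direction. Bnc1tr/tr replicate 1, the ovary with the most Kit, was also the highest in Ptch1 (216 CPM), Gli1 (60.1), Hhip (27.7) and the androgen synthesis enzyme Cyp17a1, which was at 235 CPM there, at 3.66 and 5.46 CPM in Bnc1tr/tr replicates 2 and 3 and at 8.62, 124 and 21.6 CPM in Bnc1+/+ ovaries. The theca list summed to 3659 to 4564 CPM in Bnc1+/+ and 3589 to 5381 CPM in Bnc1tr/tr ovaries and was lowest in that same replicate, since Aldh1a1 and Mgarp, both lowest there, carry much of the sum. Of 11 mast cell markers 6 could be tested and 0 passed. At an unadjusted edgeR p under 0.05 there were 2 of the 6 (Cpa3 and Tpsb2), against 24.2% of all genes. Their sum, 44.9 to 51.8 CPM in Bnc1+/+ and 32.6 to 49.9 CPM in Bnc1tr/tr ovaries, was mostly Hdc and Gata2 (log2 fold changes -0.32 and -0.28), which other cells also express. The mast cell proteases Cpa3 (1.22), Mcpt4 (1.46) and Tpsb2 (1.08) had positive log2 fold changes. They were higher in Bnc1tr/tr ovaries without overlap, against 30.8% of all genes in either direction. For Tpsb2 the nearest ovaries were almost equal, Bnc1+/+ replicate 1 at 1.38 CPM and Bnc1tr/tr replicate 1 at 1.39 CPM. For the protease Cma1 (log2 fold change 0.56) the genotypes overlapped. All of these proteases were at mean levels of at most 2.09 CPM. Of the 11 markers 3 were at 3 counts or fewer in every ovary, and Mrgprb2 was at 0 in every Bnc1+/+ ovary. The part of these cell types in the level of Kit was not tested.

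**Figure D2:**
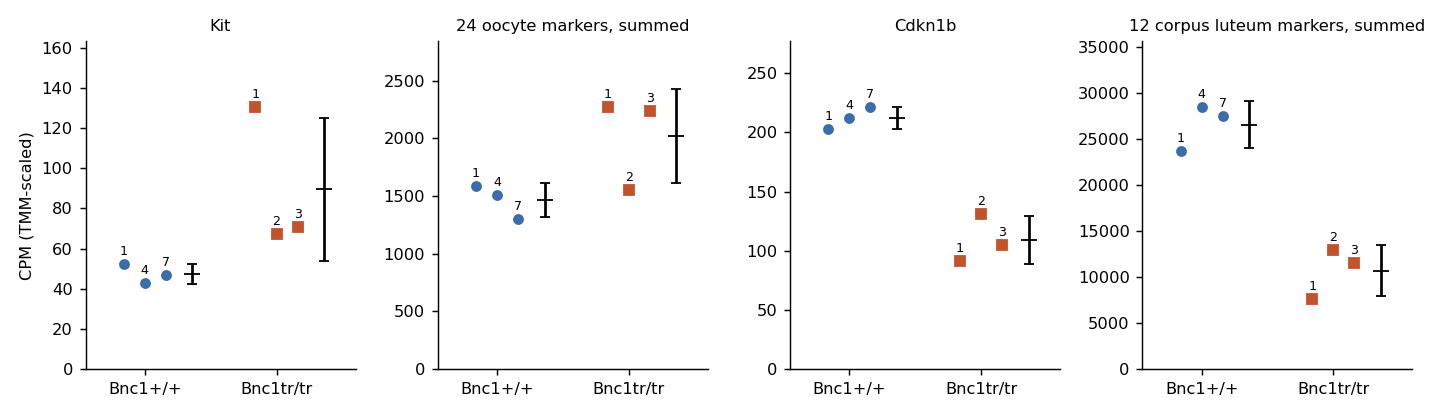
TMM-scaled CPM in each ovary (vertical axes, each from 0) of Kit, the sum of 24 oocyte markers, Cdkn1b and the sum of 12 corpus luteum markers, with replicate numbers above the points and mean ± SD (n = 3) beside them. Bnc1tr/tr replicate 1 is highest in Kit and oocyte markers and lowest in Cdkn1b and corpus luteum markers, and the oocyte sums are 1297 to 1588 CPM in Bnc1+/+ and 1550 to 2274 CPM in Bnc1tr/tr ovaries.

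Kitl, the gene of the ligand, did not pass the test. It was at 45.7, 51.4 and 44.0 CPM in Bnc1+/+ and at 46.2, 60.4 and 53.1 CPM in Bnc1tr/tr ovaries. The groups overlapped (log2 fold change 0.18, SE 0.12, 95% interval -0.093 to 0.45, edgeR adjusted p = 0.397). The log2 ratio of Kitl to Kit counts was -0.20, 0.27 and -0.095 for Bnc1+/+ against -1.50, -0.15 and -0.41 for Bnc1tr/tr ovaries, so that Bnc1tr/tr replicate 1 held the lowest ratio. The mean difference was -0.68 (exact two-sided permutation test, p = 0.2, adjusted over 3 ratios 0.2), with Bnc1tr/tr replicate 2 among the Bnc1+/+ values. With 3 ovaries against 3 the smallest p is 0.1, so this test cannot reach the threshold. Without Bnc1tr/tr replicate 1 the mean difference was -0.27. Granulosa cell markers summed to 5379 to 6761 CPM and 5952 to 8960 CPM, with 2 of 15 higher, anti-Müllerian hormone (Amh) and its receptor Amhr2, and 0 lower. Over all genes 2.88% were called higher and 4.19% lower. A scale per 1000 CPM of summed granulosa markers was also added after seeing the data. On it Kitl was at 7.61, 7.61 and 8.18 CPM in Bnc1+/+ and at 5.16, 10.1 and 6.62 CPM in Bnc1tr/tr ovaries, which overlapped. Inha and Gja1 carry much of that sum, with means of 2211 and 1047 CPM in Bnc1+/+ and 3135 and 1137 CPM in Bnc1tr/tr ovaries.

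The products of Tsc1 and Tsc2 form 1 complex, in which TSC2 switches off the mTOR activator RHEB and TSC1 stabilises TSC2. Tsc1 was at 69.3, 69.6 and 77.0 CPM in Bnc1+/+ and at 94.5, 82.5 and 74.4 CPM in Bnc1tr/tr ovaries. The groups overlapped in 1 Bnc1tr/tr ovary, replicate 3 (log2 fold change 0.22, SE 0.11, 95% interval -0.026 to 0.46, edgeR adjusted p = 0.252). Tsc2 was at 139.1, 125.3 and 152.2 CPM in Bnc1+/+ and at 129.3, 136.4 and 128.2 CPM in Bnc1tr/tr ovaries (log2 fold change -0.081, SE 0.092, 95% interval -0.30 to 0.13, edgeR adjusted p = 0.637). The 3 Bnc1tr/tr values of Tsc2 lay within the Bnc1+/+ range. The log2 ratio of Tsc1 to Tsc2 counts was -1.005, -0.85 and -0.98 for Bnc1+/+ against -0.45, -0.73 and -0.79 for Bnc1tr/tr ovaries, without overlap (mean difference 0.29, exact two-sided permutation test p = 0.1, the smallest possible, adjusted over 3 ratios 0.15).

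**Figure D3:**
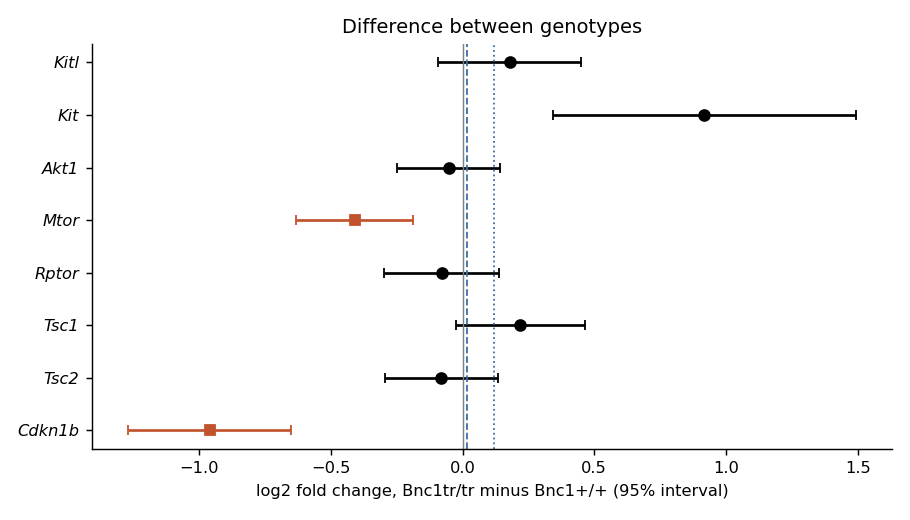
Log2 fold change of each of the 8 genes, Bnc1tr/tr minus Bnc1+/+, with its 95% interval from edgeR (horizontal axis); orange squares mark the 2 genes that passed the test and black circles the others. The dashed line is the median of all genes tested (0.02) and the dotted line the same with library size alone (0.12); the interval of Kit, 0.34 to 1.49, lies right of both lines and the intervals of Mtor and Cdkn1b left of 0.

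With library size alone as the scale, the median of all genes tested moved from 0.02 to 0.12, and 35.6% rather than 59.3% of the genes called were lower. The small differences of Akt1, Rptor and Tsc2 then turned to 0.047, 0.020 and 0.018, all below that median. No direction is therefore given for these 3 genes. Kit, Kitl and Tsc1 stayed positive and Mtor and Cdkn1b negative.

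Per kilobase of annotated exon the genes could be compared with each other. In Bnc1+/+ ovaries Akt1 stood at 110 CPM per kb, Cdkn1b at 46.6, Tsc2 at 14.4, Mtor at 13.5, Kitl at 7.96, Rptor at 7.88, Tsc1 at 6.08 and Kit at 5.32. Tsc2 and Mtor overlapped across ovaries, as did Kitl and Rptor and the pair of Tsc1 and Kit, and the other neighbours in the order did not. Kit ranked last of the 8 in Bnc1+/+ and at place 5 in Bnc1tr/tr ovaries, at 10.05 CPM per kb, where its range over the ovaries (7.53 to 14.7) overlapped those of Tsc2, Mtor, Kitl, Rptor and Tsc1, so that its place among these was not separable. Cdkn1b kept the second place at 23.96 CPM per kb. Exon length counts the bases of all annotated transcripts, so that a gene with long rare exons is set lower.

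None of the 91 other genes of the pathway passed the test with edgeR (0 rose and 0 fell), while 17 had an unadjusted p under 0.05, 9 higher and 8 lower, or 18.7% against 24.2% of all genes tested. DESeq2 called 5 of the 91 and limma-voom 0. The median log2 fold change was 0.01, with 48 positive and 43 negative values, and the genotypes did not overlap for 25 of the 91, 11 higher and 14 lower, against 30.8% of all genes. An absolute log2 fold change over 0.5 was reached by 6.59% of the 91 and by 20.3% of all genes. The lowest mean level was 1.57 CPM among the 91 and 0.235 CPM over all genes, so these shares were not matched for level. For 85 of the 91 the 95% interval lay between -1 and 1, so a change by a factor over 2 lay outside it.

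A set of 5 genes of the PI3K, AKT and mTOR branches is given whatever their values. Pdpk1, the kinase that phosphorylates AKT, had 46.5 ± 2.48 and 45.5 ± 2.01 CPM (SD, n = 3 each; edgeR adjusted p = 0.847). Foxo3, the transcription factor that keeps follicles at rest, had 109 ± 8.08 and 119 ± 5.68 CPM (log2 fold change 0.13, edgeR adjusted p = 0.411). Neither passed the test, and the genotypes overlapped for both. Rheb, the small GTPase that activates mTOR, had 66.2 ± 5.35 and 61.1 ± 1.31 CPM (log2 fold change -0.12, edgeR adjusted p = 0.450). Downstream of mTOR, the S6 kinase gene Rps6kb1 had 35.1 ± 1.49 and 35.4 ± 1.66 CPM (edgeR adjusted p = 0.946), and its substrate Rps6 had 93.7 ± 7.45 and 114 ± 9.91 CPM without overlap (log2 fold change 0.28, edgeR adjusted p = 0.132). Rps6 has many pseudogene copies in the genome, so its count is uncertain.

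By role, the 15 KIT adaptors had a median log2 fold change of -0.02, the 12 PI3K and phosphoinositide genes -0.082, and the 10 AKT isoforms, phosphatases and targets 0.11. The 9 other genes of the mTOR complexes and their switch had -0.12, the 10 mTOR targets 0.0028 and the 23 genes of nutrient and stress input 0.0061. The 12 other cell cycle genes, which include the inhibitors Cdkn1a and Cdkn1c, had 0.053. The median over all genes tested was 0.02. Called by edgeR under another scale, filter or set of ovaries, or by DESeq2, were 5 genes, named here after their values were seen. Sesn3, a sestrin that restrains mTOR complex 1, was at 32.0, 35.6 and 60.9 CPM in Bnc1+/+ and at 27.0, 18.4 and 18.0 CPM in Bnc1tr/tr ovaries (log2 fold change -1.02, SE 0.27, edgeR adjusted p = 0.0628). The Bnc1tr/tr ovaries were lower without overlap. Tfeb, the lysosomal transcription factor that mTOR holds in the cytoplasm, had 18.5 and 12.7 CPM (-0.55, edgeR adjusted p = 0.0659), and Pik3cb, a catalytic PI3K subunit, had 15.1 and 11.5 CPM (-0.39, edgeR adjusted p = 0.0671). Both lay lower in all 3 Bnc1tr/tr ovaries. The cyclins Ccnd2 (211 and 272 CPM, log2 fold change 0.37, edgeR adjusted p = 0.105) and Ccne2 (3.94 and 6.92 CPM, 0.81, edgeR adjusted p = 0.102), which p27 holds in check as partners of cyclin-dependent kinases, lay higher in all 3. Of the other listed cyclins, Ccne1 (log2 fold change 0.39) lay higher and Ccnd3 (-0.18) lower without overlap, and Ccnd1 (-0.26) overlapped. Over all genes 30.8% did not overlap, in either direction.

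**Figure D4:**
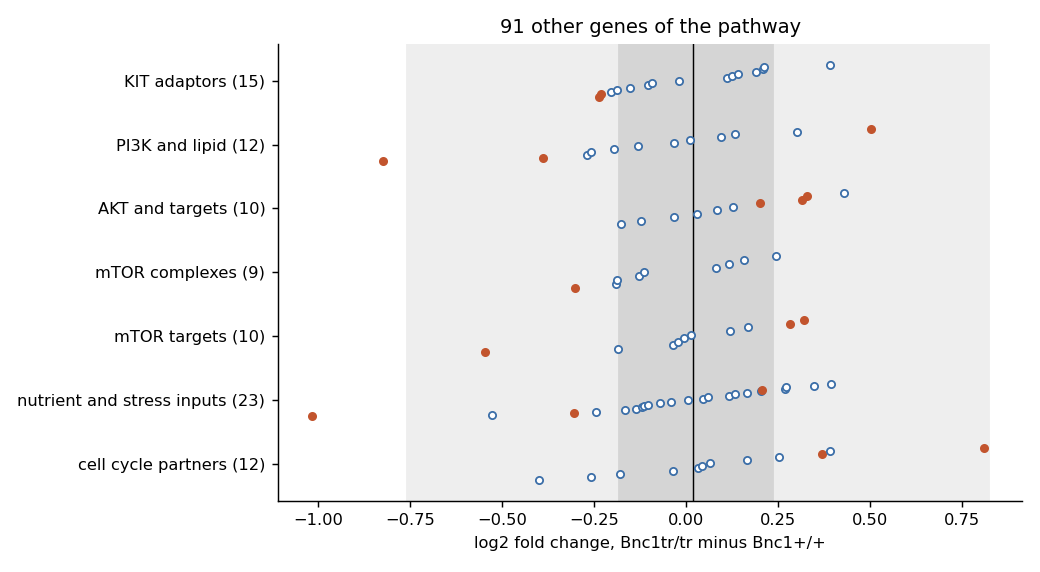
Log2 fold change, Bnc1tr/tr minus Bnc1+/+ (horizontal axis), of 91 other pathway genes in 7 groups by role, 1 circle per gene; filled circles had an unadjusted p under 0.05 and open circles did not. The dark band holds the middle 50% and the light band the middle 90% of all 19423 genes tested (-0.76 to 0.82), and the vertical line is their median; Sesn3 at -1.02 and an inositol phosphatase gene, Inpp4b, at -0.82, named after its value was seen, lie outside the light band.

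The 3 genes whose log2 CPM over the 6 ovaries was most like that of Kit were Alkbh1 (Pearson r = 0.998), Mum1l1 (0.997) and Mkx (0.996), and 222 of 16745 genes had an r over 0.95. For Kitl they were Herc4 (0.992), the pseudogene Ybx1-ps2 (0.990) and Gm1976 (0.987), and 21 genes had an r over 0.95. With 6 points that share their libraries and depth, and with Bnc1tr/tr replicate 1 high in Kit, these are descriptions only.

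**Figure D5:**
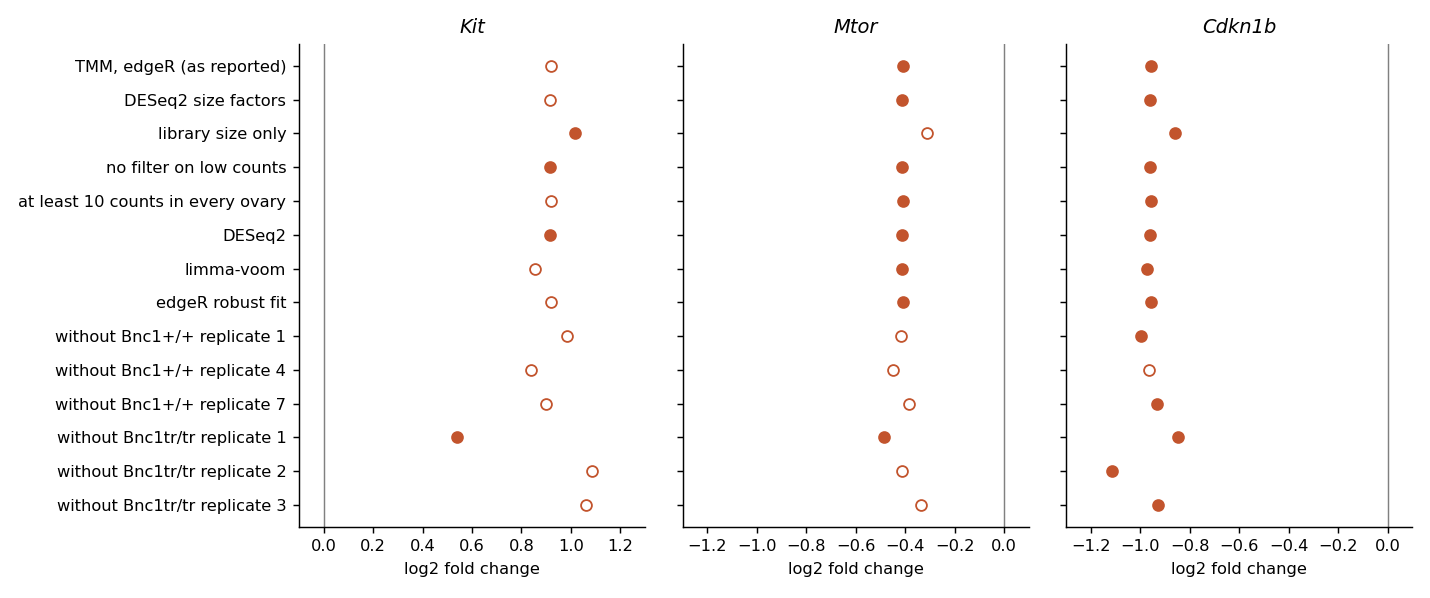
Log2 fold change (horizontal axes) of Kit, Mtor and Cdkn1b in the reported analysis and 13 alternatives (rows); filled circles had an adjusted p under 0.05 and open circles did not. The direction of each gene was the same throughout, Cdkn1b at -1.11 to -0.85, while Kit passed in 4 of the alternatives and Mtor did not pass in 6.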

How the data were processed

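Total RNA from the ovaries of 3 Bnc1+/+ and 3 Bnc1tr/tr mice was sequenced as single-end Ion Proton libraries. The authors deposited raw counts, whole numbers of reads per gene symbol and ovary, with no normalization. The aligner and counter are not given in the sources used here; the submitters' processing notes name the builds mm10 and Sscrofa10.2, a pig genome, with no role. The 8 genes and all lists were chosen with earlier results of these data known.

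Counts were filtered with filterByExpr (minimum count 10), scaled by TMM and tested with edgeR 4.0.16 in R 4.3.3 (glmQLFit, glmQLFTest, two-sided, Benjamini-Hochberg over 19423 genes, threshold 0.05). Totals were 25247770 to 34406296 counts per ovary. The pipeline was tested on simulated data. Intervals are at the 95% level, and a gene at 3 counts or fewer was taken as at the floor, which covers counting error only. Ratios were log2 of counts plus 0.5, compared by exact permutation tests. Named were the 8 genes, every pathway gene called, 6 fixed pathway genes (1 is not reported here), the 3 genes most like Kit and Kitl each, and Bnc1; lists with older symbols were matched through RefSeq synonyms. Alternatives used DESeq2 1.42.0, limma-voom (limma 3.58.1), a robust fit, other scalings and filters, and each ovary left out.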

Additional observations from a re-analysis of the deposited data

How the results depend on the processing

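The number of genes called over the whole table was 1372, against 2420 with DESeq2, and 320 to 1282 with 1 ovary left out at a time. It was 634 without Bnc1tr/tr replicate 3 and 781 without Bnc1+/+ replicate 1, the ovaries with the highest oviduct sums. Of the 8 genes 2 were called, against 0 to 3 with 1 ovary left out, where fewer samples enter the fit. Of the 91 pathway genes 0 were called, against 1 with library size alone (Ccnd2), 1 with no filter (Sesn3), 5 with DESeq2, and 0 to 1 with 1 ovary left out. Signs turned with library size alone for Akt1 (0.047), Rptor (0.020), Tsc2 (0.018) and Pdpk1 (0.067). With 1 ovary left out, Pdpk1 ranged from -0.081 to 0.0032 and Rps6kb1 from -0.025 to 0.045 on the log2 scale. The 3 within-ovary ratios kept their direction when 2 in place of 0.5 was added to each count or an ovary was left out, Kitl to Kit ranging from -0.95 to -0.27, Tsc1 to Tsc2 from 0.19 to 0.36 and Rptor to Mtor from 0.27 to 0.39, but no such test can reach the threshold. No paired analysis was possible because the genotypes share 1 replicate number only, and although the study's methods say that littermates were compared, no label ties a number to a litter. Depth did not limit the 8 genes, which had at least 1228 counts in every ovary.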
